A study of Mus musculus with 22 samples.

Results

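Of the 55385 genes counted in prefrontal cortex of adolescent DBA/2J mice, 33 stood at least 2 times higher in a single RNA-seq library, P9, than in any of the other 21 libraries. These 33 genes are described here, with the effect of binge ethanol on those tested when P9 was kept and when it was left out. They were chosen by CPM, a gene's reads scaled to a common total of reads on all genes: at least 2 CPM in P9, and at least 2 times the highest of the other 21 libraries. The choice thus rests on the level in P9 itself, so the levels in P9, and any measure of the female contrast that contains it, are descriptions and carry no test.

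Every library came from a pool of prefrontal cortex from 3 mice of the same sex and treatment. Mice of both sexes, all DBA/2J, received by gavage either water or ethanol at 4 g/kg, given as a 25% w/v solution, in 8 doses between postnatal day 29 and 42, and tissue was taken 24 hours after the final dose. There were 5 male water, 6 male ethanol, 5 female water and 6 female ethanol pools, and P9 is the third female water pool. Each pool was homogenized and divided, and RNA-seq used only a portion of it. A p-value here measures the spread between pools of 3 mice, not between single mice.

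The projection neurons of the striatum, called medium spiny neurons, are inhibitory cells that fall into a class with the dopamine receptor Drd1 and the peptide substance P, and a class with the dopamine receptor Drd2, the adenosine receptor Adora2a and enkephalin. Drd1 and Adora2a raise cyclic AMP through the olfactory-type G protein and adenylyl cyclase of these cells, Drd2 lowers it, and the phosphoprotein encoded by Ppp1r1b relays the outcome to protein phosphatase. In the study the prefrontal cortex was cut as a wedge lying above the corpus callosum, with anterior cingulate included. Cortex holds some of the same transcripts at low level in its own neurons.

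Promoter windows were available for 22 of the 33 genes, from RefSeq on GRCm38.p6, and the 250 bases upstream of the start were searched on both strands. The palindromic cyclic AMP response element TGACGTCA was found at 2 of the 22 genes (Gpr6 and Cartpt, 9.09%) and at 1.77% of all 27025 genes with a window. Its 5-base core TGACG, which the palindrome contains, was found at 9 of the 22 (40.9%) and at 19.8% of all genes. The GC box GGGCGG was present at 12 of 22 (54.5%) against 35.4%, and the TATA box TATAAA at 2 of 22 (9.09%) against 14.3%. The windows of the members had a median GC content of 59.2%, ranging from 45.6 to 74.0%, against 52.4% over all genes. These matches are letters in a window and say nothing of binding. The windows of 3 marker genes, free of annotated exons, are shown 5′ to 3′ because the results turn on these receptors and this regulator, with the response element, its core, the TATA box and the GC box, or their reverse complements, in capitals.
Drd2, chr9:49340153-49340402, plus strand: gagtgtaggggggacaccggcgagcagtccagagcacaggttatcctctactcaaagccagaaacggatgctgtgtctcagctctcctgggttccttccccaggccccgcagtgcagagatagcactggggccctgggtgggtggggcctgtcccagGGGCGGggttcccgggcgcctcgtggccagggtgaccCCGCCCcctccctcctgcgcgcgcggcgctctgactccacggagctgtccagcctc
Gpr6, chr10:41072291-41072540, minus strand: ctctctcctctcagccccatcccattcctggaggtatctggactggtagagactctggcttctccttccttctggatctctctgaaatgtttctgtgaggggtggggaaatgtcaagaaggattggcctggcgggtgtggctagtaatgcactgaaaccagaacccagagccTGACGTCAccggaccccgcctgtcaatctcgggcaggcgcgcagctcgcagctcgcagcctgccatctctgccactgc
Rgs9, chr11:109298182-109298431, minus strand: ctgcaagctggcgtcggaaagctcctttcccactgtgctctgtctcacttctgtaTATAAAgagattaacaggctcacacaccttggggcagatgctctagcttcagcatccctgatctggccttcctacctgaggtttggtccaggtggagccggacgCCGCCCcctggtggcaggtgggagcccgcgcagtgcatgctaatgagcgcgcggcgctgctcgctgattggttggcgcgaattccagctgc
The Gpr6 window, on the minus strand of chromosome 10, holds the response element starting 78 bases before the start. The Drd2 window holds a pair of GC boxes and no response element, and the Rgs9 window holds a TATA box 195 bases and a GC box 91 bases before the start.

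The reads on genes ranged from 30546493 to 46519801 per pool, and P9 had 36207034, against 32142664 to 42425357 for its female water counterparts. Y-linked genes had 6195 to 10657 reads in male pools and at most 16 in female pools, with 2 in P9. The same rule applied to each of the other 21 pools found no gene in 15 of them and at most 12 genes, in the fourth male water pool, where olfactory bulb genes such as Cdhr1 and Eomes led. The summed oligodendrocyte markers ranged widely, from 1916 to 6649 CPM in the other pools, with P9 at 3077 CPM. Libraries other than P9 thus also stood apart in genes outside the set.

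P9 carried the 33 genes at a summed 736 CPM, against 155 to 187 CPM (median 171 CPM) in the other pools. Among the 13840 genes at 2 CPM or more in P9, the 33 members are 0.238%. The annotation used lists 30 of them as protein coding and 3 as processed transcripts, and they lay on 17 chromosomes, with at most 4 on chromosome 6. The ratio of P9 to the highest other pool had a median of 3.93 and exceeded 4 at 14 genes. In the other pools the median of the members, relative to their usual level, moved only between -0.16 and 0.17 on the log2 scale. All 6 marker genes named for the set (Adora2a, Drd2, Drd1, Rgs9, Gpr6 and Penk) were members.

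**Figure D1:**
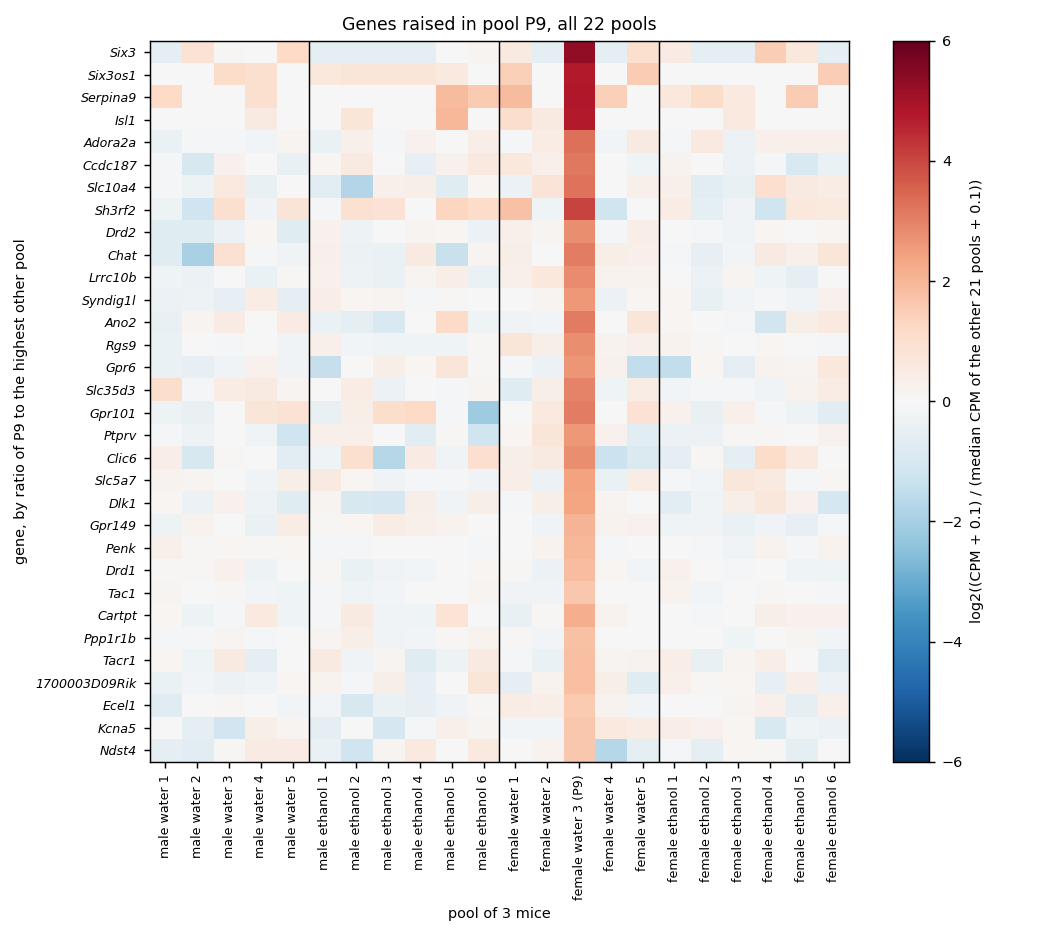
Level of the genes raised in P9 (rows, 1 gene not drawn, ordered by the ratio of P9 to the highest other pool) in all 22 pools (columns, grouped by sex and treatment), as log2 of CPM plus 0.1 over the median of the other 21 pools. P9, the third female water pool, is the single column in which every row is raised.

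The receptors held the largest share of the markers. Adora2a (chr10:75316877-75334784, plus strand, GRCm38), the adenosine receptor of Drd2-class neurons, was at 37.3 CPM in P9 and at 2.73 to 5.60 CPM (median 3.68) elsewhere. Drd2 (chr9:49340627-49408177), the inhibitory dopamine receptor, was at 14.3 CPM against 1.16 to 2.71 (median 2.02). Drd1 (chr13:54051183-54055705), the stimulatory dopamine receptor, was at 36.5 CPM against 7.66 to 12.1 (median 10.1). Receptors of both classes of projection neuron were raised, with a ratio to the highest other pool of 6.66 for Adora2a, 5.30 for Drd2 and 3.02 for Drd1. Gpr6 (chr10:41069977-41072285), an orphan receptor that signals without ligand and raises cyclic AMP, was at 7.10 CPM against 0.311 to 1.78 (median 1.05). The orphan receptors Gpr101 (3.54 against at most 0.900 CPM) and Gpr149 (3.07 against at most 0.946 CPM) and the substance P receptor Tacr1 (6.63 against at most 2.68 CPM) were lower in level. In no case did P9 overlap the other pools, as the rule required.

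Of the 3 peptide precursors, Penk was the most abundant member of the whole set. Penk (chr4:4133531-4138819), the precursor of enkephalin, was at 148 CPM in P9 and at 33.1 to 46.1 CPM (median 37.8) elsewhere. Tac1, the precursor of substance P, was at 51.8 CPM against 14.1 to 19.4. Cartpt, the precursor of the cocaine- and amphetamine-regulated transcript peptides, was at 6.02 CPM against 0.888 to 2.28. All 3 were counted in every other pool, and the ratio to the highest other pool was 3.22 for Penk, 2.67 for Tac1 and 2.65 for Cartpt.

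Downstream of the receptors, Rgs9 (chr11:109225355-109298129), a GTPase-activating protein that shortens G protein signals, was at 57.5 CPM in P9 and at 6.23 to 13.9 CPM (median 8.32) elsewhere. Ppp1r1b, the dopamine- and cAMP-regulated phosphoprotein, was at 128 CPM against 32.0 to 48.5. The non-coding 1700003D09Rik, which overlaps Ppp1r1b on the opposite strand, was at 3.62 CPM against at most 1.65. Counting was strand-specific, but how many reads of such overlapping pairs were counted on the wrong strand was not tested. In P9, 1700003D09Rik had 131 reads and Ppp1r1b 4640, and their medians in the other pools were 0.950 and 38.0 CPM. Measured per kilobase of exon, the level in P9 was highest at Penk (90.8 CPM per kb), and stood at 43.8 CPM per kb for Ppp1r1b, 15.2 for Tac1 and 12.2 for Adora2a. Of the summed rise in CPM over the median of the other pools, Penk made up 19.5%, Ppp1r1b 15.9% and Rgs9 8.66%.

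The highest ratios belonged to genes with few reads in the other pools. Six3, a homeobox factor needed for Drd2-class neurons, had 213 reads in P9 (5.88 CPM) and at most 0.310 CPM elsewhere, the highest ratio of the set. Six3os1, a non-coding RNA that overlaps Six3 on the opposite strand, had 2.62 CPM against at most 0.187, and Isl1, a LIM-homeodomain factor of Drd1-class and cholinergic neurons, 2.57 against at most 0.300. Serpina9, of the serine protease inhibitor family, had 2.68 CPM against at most 0.278. Of the 33 genes, 8 had 0 reads in at least 1 other pool, and Six3os1, Serpina9 and Isl1 had 0 reads in more than 10 of them. At these genes the other pools held too few reads to compare with each other.

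Genes of cholinergic neurons formed a further group. Chat, which makes acetylcholine, was at 3.12 CPM in P9 and 0 to 0.622 CPM elsewhere, and Slc5a7, which takes up choline, was at 8.51 against 1.12 to 2.50. Slc10a4, a vesicular protein of cholinergic and monoamine neurons, was at 3.15 CPM against at most 0.569. The cholinergic transcripts Slc18a3 and Lhx8 fell under the 2 CPM minimum, with 1.63 and 1.68 CPM in P9 and at most 0.602 and 0.129 CPM elsewhere.

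The remaining members serve varied functions. Slc35d3, a nucleotide-sugar transporter family member of Drd1-class neurons, was at 7.46 CPM against at most 1.87. Syndig1l, a membrane protein enriched in caudate, was at 15.8 CPM against at most 3.56. The ion channel genes Ano2 (3.59 against at most 0.850 CPM), Clic6 (3.56 against at most 1.03 CPM) and Kcna5 (4.09 against at most 1.91 CPM) were all low in level. Dlk1, a membrane protein related to Notch ligands, was at 6.90 CPM against at most 2.07, and Ecel1, a neuronal metallopeptidase, at 15.6 against at most 7.22. Ndst4, which sulfates heparan chains, was at 3.81 CPM against at most 1.81, and Sh3rf2, a RING-finger protein, at 3.65 against at most 0.666. Ccdc187, Lrrc10b and Ptprv (annotated as a processed transcript) were at 17.4, 17.3 and 8.89 CPM in P9 and at most at 2.91, 3.77 and 2.36 CPM elsewhere.

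At the threshold, the members just inside were Tacr1, 1700003D09Rik, Ecel1, Kcna5 and Ndst4, with ratios from 2.47 down to 2.11. Just outside stood Dchs2, a cadherin (1.96), Scn4b, a sodium channel subunit of striatal neurons (1.89), Gng7, the G protein gamma subunit of the striatal cyclic AMP pathway (1.84), Strip2 (1.84) and Filip1 (1.83). Gng7 was at 213 CPM in P9 against 100 to 115 in the other pools, so the step to the nearest non-members was gradual. A ratio of 1.5 in place of 2 gave 59 genes and a ratio of 3 gave 24, whereas TMM-normalized CPM gave the same 33 genes.

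**Figure D2:**
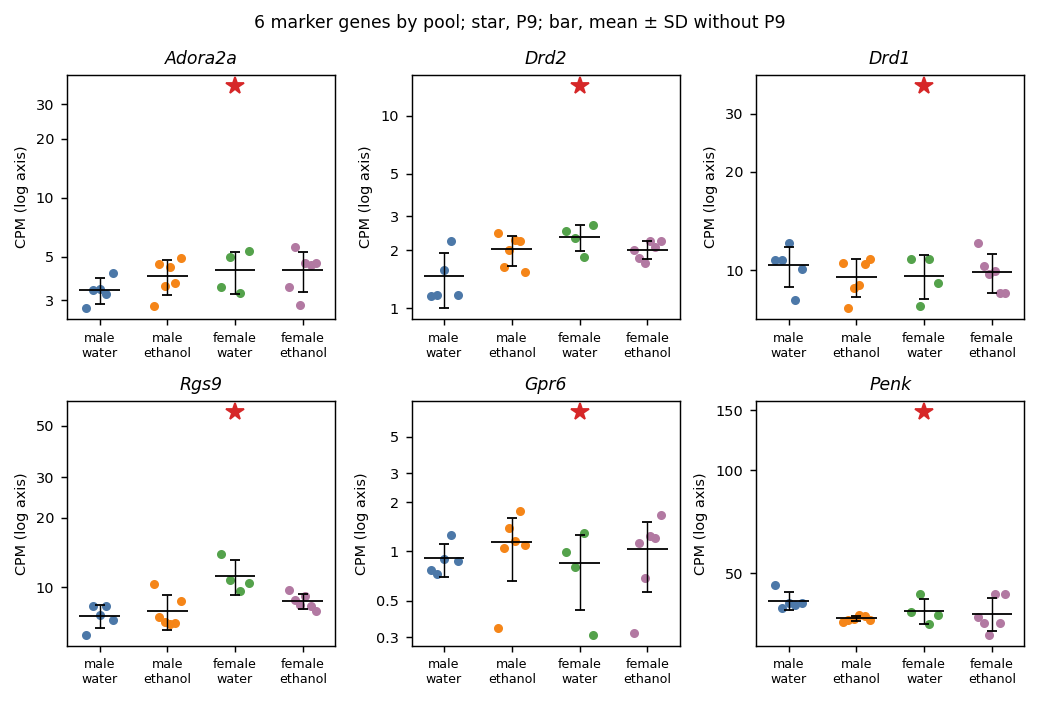
CPM (log axis) of the 6 marker genes in each pool by sex and treatment, with the mean and SD of each group drawn without P9 (horizontal line and bar) and P9 as a star. At each gene the star lies above all other pools (37.3 against at most 5.60 CPM at Adora2a), and without it male ethanol pools lie below male water pools at Penk (36.0 to 37.8 against 39.7 to 46.1 CPM), and male water pools below female water pools at Rgs9 (6.23 to 8.30 against 9.60 to 13.9 CPM).

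The label was compared with lists of cell type and tissue markers, again as a description. P9 was the highest of the 22 pools at 5 of 6 Drd2-class, 4 of 7 Drd1-class, 16 of 18 shared medium spiny neuron and 8 of 9 striatal interneuron and ventral striatal genes in the table, where 7.30% of 15238 expressed genes had P9 highest and 4.74% had it lowest. These lists hold 4, 4, 3 and 2 of the members themselves, which the rule placed highest in P9, so nothing is read from these counts. Of the list genes that are no members, P9 was the highest at 1 of 2 Drd2-class (Sp9), 0 of 3 Drd1-class, 13 of 15 shared and 6 of 7 striatal interneuron and ventral striatal genes. Those within the other pools were Ptprm of the Drd2-class list, Chrm4, Ebf1 and Sfxn1 of the Drd1-class list, Meis2 and Arpp19 of the shared list, and Crym, a ventral striatal gene. Chrm4, a muscarinic receptor, was at 26.1 CPM against 16.3 to 26.7. In the shared list, Adcy5, the striatal adenylyl cyclase, was at 331 CPM against 169 to 198, and Pde1b, which degrades cyclic nucleotides, at 164 against 92.9 to 105. Summed over the genes that are no members, P9 was within the other pools for the Drd2-class list (50.7 CPM against 45.4 to 61.7) and the Drd1-class list (83.0 against 74.3 to 87.2). It was above them for the shared list (2007 against 1303 to 1473 CPM) and the striatal interneuron and ventral striatal list (226 against 124 to 172 CPM). Outside the members, P9 was thus set apart by genes that both classes share and by interneuron and ventral striatal genes. The class-specific sums cannot decide for the classes, since the rule had taken 4 members out of each list. Of what was left in P9, Ptprm made up 43.5 CPM of the Drd2-class sum and Sfxn1 51.5 CPM of the Drd1-class sum.

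Among the other tissue and cell type lists, the GABA list also had its sum in P9 above the other pools (1067 against 881 to 1000 CPM). The rest had their sums within the other pools. Of 14 cortical excitatory genes, P9 was the highest at 1 (Foxp2, which striatal neurons also use), the lowest at 2 (Neurod2 at 75.7 and Tbr1 at 103 CPM) and within the other pools at 11. The summed cortical excitatory level was 2756 CPM in P9, within 2488 to 3177 elsewhere. Cortical interneuron, thalamus and hypothalamus, oligodendrocyte, vessel, astrocyte, microglia and immediate early lists had no gene with P9 highest. The choroid plexus list had P9 highest at 1 of 10 genes (Clic6, a member and so placed highest by the rule). Its defining gene Ttr was at 2.87 CPM, within 0.834 to 25.1 CPM elsewhere. Septal genes were split, with 2 highest, 2 lowest (Zic2 and Prdm16) and 5 within. The 2 highest were Ndst4, a member, and Nts, which is also on the ventral striatal list. Among the 8 septal genes that are no members, 1 was highest and 2 were lowest. Of 4 GABA genes, 3 (Gad1, Gad2 and Slc32a1) and 3 of 12 olfactory bulb and neuroblast genes (Sox11, Dlx5 and Dlx6) were highest in P9. In bulk tissue, more cells of a type and more RNA per cell cannot be told apart.

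**Figure D3:**
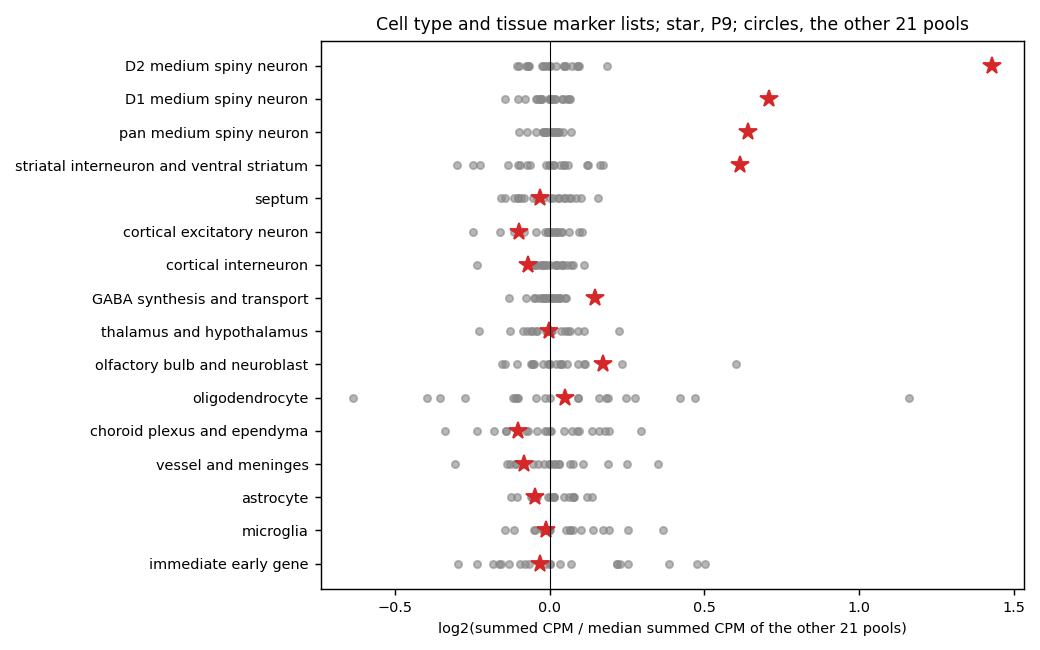
Summed CPM of each marker list (rows) in P9 (star) and in each of the other 21 pools (circles), as log2 over the median of the other pools. With members included, the medium spiny neuron and striatal interneuron lists have P9 apart to the right (without members it lies within the other pools for the Drd2-class and Drd1-class lists), P9 is also the highest pool for the GABA list, and the other lists have P9 within the spread of the other pools.

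The exon bins, of which 32 members had their own, showed the same rise along the genes. Of the 207 bins of members with at least 10 counts in P9, 202 (97.6%) had their highest level in P9, where 6.63% of all such bins did. These bins belong to the same reads as the gene counts and are no independent evidence. The share of a gene's summed bin counts that lies on a bin is not set by the rule. Of 90 such shares at 15 members, 1 (1.11%) was outside the range of the other 21 pools, where 9.01% of all bins compared were. Members have fewer reads in the other pools than in P9, and counting error widens the range of those shares, so a change in the mix of exons may not be detectable at this depth.

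That share was at the 3′ end of Rgs9. The gene has a long form, the one known from striatum, whose last exons lie at chr11:109225355-109225776 and chr11:109227126-109227604, and a short form whose last exon lies at chr11:109235057-109235899, mostly untranslated. In P9 the short end had 91 bin counts and the long end 693, so the short end made up 11.6% of both. The exact binomial 95% interval was 9.45 to 14.1%, for counting error only. It takes each count as a separate read, whereas a read that spans bins may be counted in each, which was not tested. In the other pools the short end made up 13.5 to 37.3% (median 25.7%), from 11 to 50 short and 42 to 128 long counts. As a share of the counts summed over all Rgs9 bins, the short end was at 3.31% in P9 and at 3.63 to 11.1% elsewhere. P9 was the lowest pool, and its interval met those of several other pools.

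**Figure D4:**
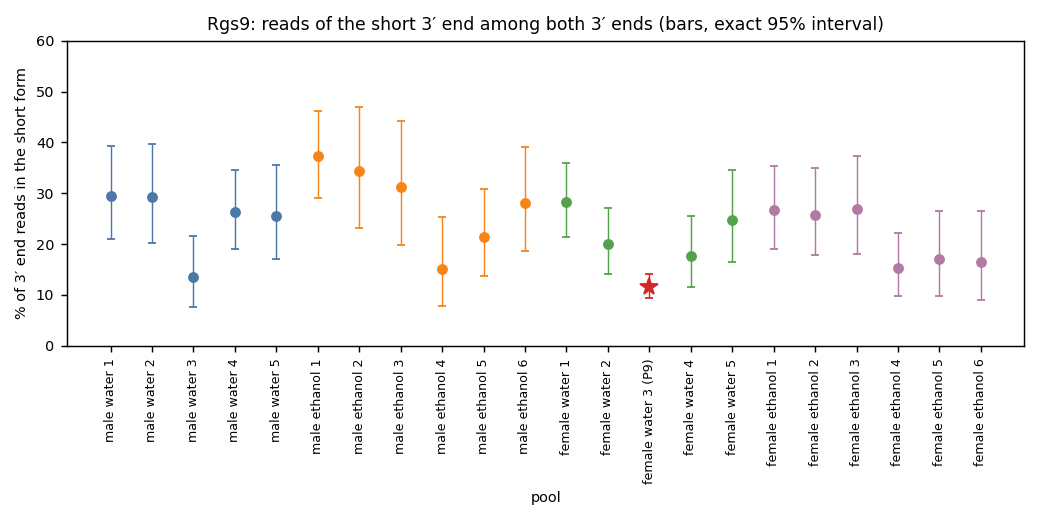
Percent of Rgs9 bin counts at both 3′ ends that lie on the short end, by pool. Exact 95% binomial intervals take each count as a separate read. P9 (star) is lowest at 11.6%, and the third male water pool is the nearest at 13.5%.

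Whether the markers also move together in the pools that did not choose them was asked with the other 21 pools. Over these, Adora2a had a Spearman rho of 0.22 with Drd2 (permutation p = 0.326, adjusted 0.536), 0.20 with Rgs9, 0.18 with Gpr6, 0.07 with Penk and -0.37 with Drd1 (permutation p = 0.101, adjusted 0.505). Pearson's r gave 0.24, 0.11, 0.19, 0.05 and -0.41 in the same order, the last with a permutation p of 0.0690 (adjusted 0.345). None of the 5 pairs passed an adjusted 0.05 in the two-sided permutation tests with 100000 resamples. Leaving out the pair of pools farthest from the median of Adora2a changed r to 0.18, 0.01, 0.43, 0.17 and -0.47. Within males (11 pools) rho was -0.01, -0.05, 0.43, -0.36 and -0.19 in that order, and within females (10 pools) 0.37, 0.07, -0.08, 0.52 and -0.38. A common rise of these markers was therefore not detectable outside P9.

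The same held across the set. Among the 20 members with a median of at least 1 CPM in the other pools, the 190 pairs had a median rho of 0.03, from -0.49 to 0.65, and 105 pairs were positive. All pairs share the same 21 libraries. The genes most like Adora2a over these pools, out of 15222 at a mean of 1 CPM or more, were Lrfn3 (rho 0.73), Fst (0.73), Sh3gl1 (0.72), Kirrel2 (0.71) and Cnih4 (0.70). None of them is a member, and in P9 all 5 were inside the range of the other pools.

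The design compares ethanol with water within each sex. With all 11 female pools, ethanol pools had lower fitted levels than water pools at all 28 of the members that passed the filter on low counts (50.4% of all genes were lower), with a median log2 fold change of -0.98 against a median of 0.00 over all genes. Of the 28, 8 passed the unadjusted p of 0.01 used in the study, all lower (background 1.78% of 18460 genes in either direction with 1.14% lower and 0.639% higher), and 19 passed 0.05 (background 7.46%), whereas none passed an adjusted 0.05. Because P9 is a water pool and chose the members, this direction is fixed by the choice and nothing is read from it. The 8 genes made up 2.43% of the 329 genes called in that contrast. The 5 members Six3, Six3os1, Serpina9, Isl1 and Sh3rf2 were too low in the female pools to be tested.

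Without P9 the same contrast lost this direction. Of 28 members tested, 15 had a negative and 13 a positive log2 fold change (negative at 49.8% of all genes), with a median of -0.02 against 0.00 over all genes. The fold change moved upward at each of the 28, by 0.37 (Ecel1) to 1.53 (Slc10a4) and by 0.88 at the median, and 13 genes changed sign. The gene-wise coefficient of variation between pools, as estimated by edgeR, had a median of 0.43 over the members with P9 and 0.23 without it, against 0.10 for all genes in both fits. The choice of members enters the value with P9. Without P9 the members ranged from 0.07 (Ppp1r1b) to 0.46 (Clic6), and all genes were not matched to them in level. A single member, Rgs9, was called by edgeR at the unadjusted threshold (background 2.31% of 18734 genes, 1.42% lower and 0.886% higher), 3 passed 0.05 (background 9.15%), and none passed an adjusted 0.05.

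Among the receptors, the log2 fold change of Adora2a went from -1.33 with P9 to 0.01 ± 0.18 (SE) without it. That of Drd2 went from -1.22 to -0.21 ± 0.18, that of Drd1 from -0.59 to 0.05 ± 0.11 and that of Gpr6 from -1.01 to 0.29 ± 0.40. In the 4 remaining water pools Adora2a was at 3.50, 5.00, 3.26 and 5.32 CPM, and in the 6 ethanol pools at 2.85 to 5.60 CPM (median 4.59). The ethanol range enclosed the water range. Drd2 was at 2.53, 2.31, 1.85 and 2.71 CPM in water and at 1.72 to 2.24 (median 2.05) in ethanol pools, Drd1 at 10.8, 7.80, 10.8 and 9.12 against 8.51 to 12.1 (median 9.85), and Gpr6 at 0.999, 0.801, 1.29 and 0.311 against 0.319 to 1.66 (median 1.16). Of the other receptors, Gpr101 from -1.79 to -0.62, Gpr149 from -1.12 to -0.39 and Tacr1 from -0.55 to 0.06, and none of these was called by edgeR without P9.

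The peptide precursors and signalling genes moved alike. Penk went from -0.66 with P9 to -0.02 ± 0.08 without it, at 38.6, 43.4, 35.4 and 37.8 CPM in the 4 water pools and 33.1 to 43.4 CPM (median 36.5) in the ethanol pools. Tac1 went from -0.41 to 0.13, Cartpt from -0.64 to 0.19 and Ppp1r1b from -0.58 to -0.02. These 4 precursors and relay genes thus had no called difference once P9 was out.

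Rgs9 was the only member of the 28 called by edgeR without P9, a count near the background of 2.31% of all genes. It was at 13.9, 10.7, 9.60 and 10.5 CPM in the 4 remaining water pools and at 7.86 to 9.72 CPM (median 8.60) in the 6 ethanol pools, and the groups met only at their edges. Its log2 fold change went from -1.21 to -0.35 ± 0.10 (edgeR quasi-likelihood test, adjusted p = 0.321 over all genes). Without the first female water pool, where it was highest, the fold change was -0.24 (adjusted p = 0.627) and no member was called. That pool also had the highest summed oligodendrocyte markers of all pools (6649 CPM, against 1916 to 4123 in the others), the lowest cortical excitatory (2488 CPM) and cortical interneuron (718 CPM) sums, and 15.1% of expressed genes at their highest. The part of these in the Rgs9 value was not tested. The call of Rgs9 was also lost with the replicate number as a block in the edgeR fit.

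Lrrc10b, a leucine-rich repeat gene, came next, at 2.94, 3.77, 2.75 and 2.74 CPM in water and 1.58 to 2.699 CPM (median 2.15) in ethanol pools. The 2 ranges did not touch, with a log2 fold change of -0.50 ± 0.18 (adjusted p = 0.449) against -1.45 with P9, and it passed the unadjusted 0.05 but not 0.01. Ccdc187 (-1.69 with P9, -0.44 without, adjusted p = 0.593) and Tac1 (adjusted p = 0.654) were also among the smallest p-values.

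The transcription factors could not be followed, since Six3, Six3os1 and Isl1 were filtered out. The cholinergic genes went from -1.39 to -0.05 at Chat, from -0.74 to 0.14 at Slc5a7 and from -1.44 to 0.09 at Slc10a4. The rest without P9 were Ano2 -0.12, Slc35d3 0.00, Syndig1l -0.07, Ptprv -0.25, Clic6 0.41, Dlk1 -0.09, Kcna5 -0.28, Ecel1 -0.17, Ndst4 0.22 and 1700003D09Rik 0.16 on the log2 scale, none past an unadjusted 0.05 in the edgeR test. With P9, the same 10 genes had lain between -1.54 (Ano2) and -0.49 (Ndst4).

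**Figure D5:**
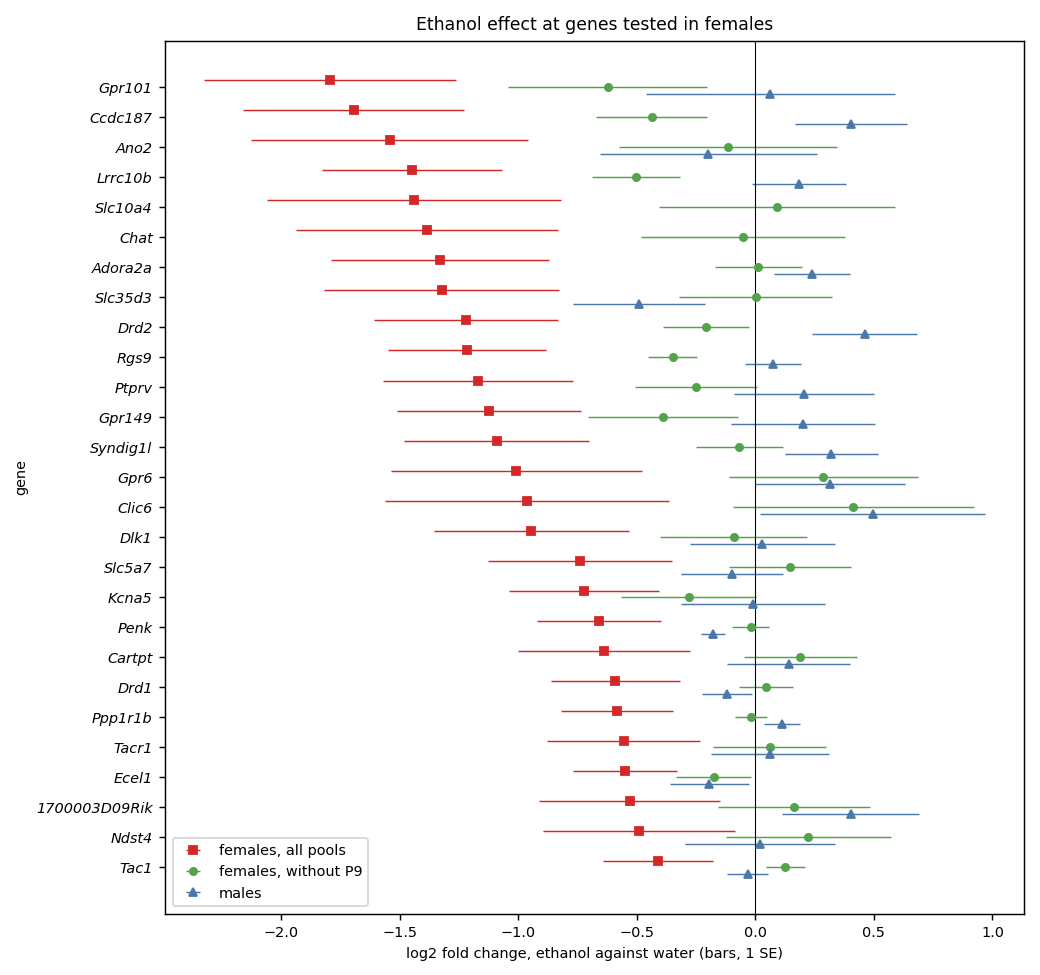
Log2 fold change, ethanol against water, with 1 SE, at the genes tested in females (1 gene not drawn), with all female pools (squares), without P9 (circles) and in males (triangles, where tested). The squares are all below 0, and the circles and triangles scatter around it.

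Males give a contrast that holds no P9. Of 27 members tested, 8 had a negative and 19 a positive log2 fold change (negative at 51.2% of all genes), with a median of 0.11 against 0.00 over all genes, and 2 were called by edgeR (background 1.70% of 18347 genes, 0.937% lower and 0.758% higher). An unadjusted 0.05 was passed by 3 (background 6.73%), and an adjusted 0.05 by none. Penk was at 46.1, 39.7, 40.9, 40.3 and 41.0 CPM in the 5 water pools and at 36.0 to 37.8 CPM (median 36.7) in the 6 ethanol pools. Every ethanol pool lay below every water pool, and the log2 fold change was -0.18 ± 0.05 (adjusted p = 0.415). The call was lost without the first male water pool, with an adjusted p = 0.801.

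Drd2 followed in males, at 1.16, 1.17, 1.58, 2.23 and 1.17 CPM in water and 1.55 to 2.46 (median 2.12) in ethanol pools, with 0.46 ± 0.22 (adjusted p = 0.740), past the unadjusted 0.05 only. Slc35d3 (-0.49, adjusted p = 0.806) and Ccdc187 (0.40, adjusted p = 0.814) were the next. Adora2a (0.24 ± 0.16), Drd1 (-0.12 ± 0.11), Rgs9 (0.07 ± 0.12) and Gpr6 (0.31 ± 0.32) did not pass an unadjusted 0.05.

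The difference between the sexes in the ethanol effect was tested directly. With P9, 7 of 29 members were called (background 0.592% of 19411 genes, 0.366% with the effect more negative in females) and 12 passed 0.05 (background 3.67%), and the effect was more negative in females at all 29 (49.9% of all genes). The choice of members enters these counts, and nothing is read from them. Without P9, none of 29 was called by edgeR (background 0.568% of 19716 genes), 4 passed an unadjusted 0.05 (background 3.80%) and 1 was called by DESeq2. The 4 were Rgs9 (-0.43 ± 0.16), Lrrc10b (-0.69 ± 0.27), Ccdc187 (-0.84 ± 0.34) and Drd2 (-0.67 ± 0.28), each with a more negative effect in females and an adjusted p of 1.00. The fifth, Penk, was at 0.16 ± 0.09. Across the members the effect was more negative in females at 18 of 29 (49.8% of all genes).

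The wider pathway, from ligands to transcription factors, had 66 genes tested in each sex. In females 5 were called lower with P9 (background 1.14%) and 1 without it (Rgs9, background 1.42%). In males 1 was called higher (background 0.758%) and 1 lower (Penk, background 0.937%). The 5 were Adora2a, Drd2, Gpr101, Rgs9 and Nts, the neurotensin precursor, which is no member (-1.18 with P9). The rule placed the members highest in P9, where Nts was also highest (2.65 against at most 1.62 CPM). The choice thus enters the count with P9, and nothing is read from it. Without P9 the median log2 fold change was 0.05 for ligands and peptides, 0.05 for receptors, 0.02 for G proteins and regulators, 0.00 for cyclic AMP enzymes, 0.09 for kinases and phosphatase regulators and 0.09 for transcription factors. Of the marker lists for other tissues, oligodendrocyte genes had a median of -0.26 in females without P9, with 0 of 12 called. In males their median was 0.07. Their summed level was 6649 CPM in female water pool 1. It was 3322, 2765 and 2263 CPM in female water pools 2, 4 and 5, within the 1916 to 3987 CPM of the female ethanol pools. The median without female water pool 1 was not tested, nor was the part of these genes in the Lrrc10b value.

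Exon use, the share of a gene's bin counts on each bin, was tested at 12 members in females without P9. None was called by the Simes test of diffSpliceDGE (background 0.446% of 13225 genes), and 0 passed an unadjusted 0.05. In males 1 of 11 was called, Drd1 (adjusted p = 1.00, background 0.242% of 13224 genes), and Penk alone joined it at an unadjusted 0.05. The call of Drd1 was lost in 6 of the 11 fits that left out a pool (male water pool 1, 3 or 5, or male ethanol pool 3, 4 or 5), in which no member was called, and none was called with bins of 50 counts. At Drd1 the bin chr13:54054261-54054613, the untranslated start of the coding exon, was compared as a share of the gene's bin counts. It took 3.00, 4.85, 2.55, 6.70 and 3.21% in male water pools and 2.23 to 12.8% (median 9.20%) in male ethanol pools. These shares rest on 4 to 24 reads per pool, and the sixth male ethanol pool was below all water pools. In females the same bin took 3.73 to 10.2% in water pools other than P9 and 3.69 to 13.7% in ethanol pools.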

How the data were processed

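RNA was measured by polyA-enriched, strand-specific sequencing of 22 pools of mouse prefrontal cortex. Per the file headers, the authors counted reads per gene with featureCounts 2.0.2 on GRCm38 (Ensembl release 99), strand-specific, and deposited raw counts. The submitters' processing notes also name FastQC, STAR 2.7.8a and Subread 2.0.2. Counts per exon bin were deposited for each pool, by a program that the sources used here do not name. Of gene counts from 1 to 20, 73.3% were even, so both reads of a pair were mostly counted and totals exceed the number of fragments. Symbols came from the reference table for 55144 identifiers.

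CPM was computed from the sum of all genes. A gene was a member at 2 CPM or more in P9 and a ratio of 2 or more. Genes with no symbol and 3 genes not reported here were left out of the set, and some further genes are counted but not reported here. The members, gene lists and tests were chosen with earlier results of these data known. Ethanol was tested with edgeR 4.0.16 (TMM, filterByExpr with a minimum count of 10, quasi-likelihood) in each sex apart, called at an unadjusted p of 0.01, with Benjamini-Hochberg adjustment over all genes beside it. The SE is the log2 fold change over the square root of F. The sex difference was tested in a fit of all groups. Exon use was tested with diffSpliceDGE on bins with 10 or more counts in 4 or more pools. Alternatives were DESeq2 1.42.0, limma 3.58.1 (voom), RLE scaling, no filter, a fit of both sexes together, the replicate number as a block and each pool left out. The tests were run on simulated counts with known changes. For the sex difference without P9 no level of recovery was required. The exon use simulation changed only the most-read bin of a gene, so it does not show power at members with few reads per bin. Ranks and permutations used scipy 1.17.1, with log2(CPM + 0.1).

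By the rule for named genes, the text names the members reported here, with the 6 markers in full, the 5 genes on either side of the threshold, the smallest p-values in females without P9, males and the sex difference, the 5 genes most like Adora2a by rank over the other 21 pools, and pathway genes with a call. Other genes of the marker lists were chosen after their values were seen.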

Additional observations from a re-analysis of the deposited data

Results flagged for a closer look

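Values of 8 genes were examined for a pool far from the rest of its group, with P9 left out because it defines the set, over 32 groups of 4 to 6 pools. Chance marks about 1 group in 20. A single pool stood out by Dixon's test. Penk in the first male water pool was at 46.1 CPM, with the other male water pools at 39.7 to 41.0 CPM. It lies in the comparison in which Penk was called, and leaving out this pool ended the call.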

How the results depend on the processing

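The set had 59 genes at a ratio of 1.5 and 20 at a minimum of 5 CPM. In females with P9, 28 members were called with no filter on low counts, 18 of them at an adjusted 0.05. DESeq2 called 2 and gave no p at 11 members. Limma-voom called 0, a single fit of both sexes 14 and the replicate block 4. Calls over all genes were 699 of 32036 with no filter (49 at an adjusted 0.05) and 436 of 18460 with DESeq2. They were 325 of 18460 with limma-voom, 413 of 19411 in the single fit and 388 of 18460 with the block. P9 is a water pool and chose the members, so these member counts are set by the choice and nothing is read from them. Leaving out a pool gave 1 to 17 members called, with 224 to 432 calls over all genes, and 1 was the fit without P9. The median log2 fold change of the members ranged from -1.22 to -0.0190 in those fits, the last without P9. Without P9 in females, 2 members were called with no filter, Rgs9 among them (834 of 31711 over all genes). DESeq2 called Rgs9 and Lrrc10b (558 of 18734 over all genes). The replicate block called 2, Lrrc10b among them. Without a further pool 0 to 2 members were called (317 to 525 calls over all genes), with medians from -0.08 to 0.01. In males, 0 members were called with both sexes in a single fit (255 of 19411 over all genes). In that fit without P9, an alternative chosen after seeing the data, 0 were called (287 of 19716 over all genes). The replicate block called 1. Leaving out a pool gave 0 to 3 members (223 to 381 calls over all genes), with medians from 0.08 to 0.17. For the sex difference with P9, 1 member was called by DESeq2 (151 of 19411 over all genes) and 20 with no filter (587 of 34247). The choice of members enters these counts too. Without P9, 1 member was called by DESeq2 (155 of 19716 over all genes) and 1 with no filter (557 of 34088). Exon use gave 0 members in males with bins of 50 counts (9 of 9726 over all genes). It gave 0 to 2 without a pool in males (24 to 42 calls over all genes), and 0 throughout in females. The rho of Adora2a with Drd2 was -0.0519 on deviations from group means and -0.00909 in males, with Rgs9 -0.0455 in males, with Gpr6 -0.0788 in females and with Penk -0.364 in males. The cause of these changes was not tested. The call of Rgs9 in females without P9 was lost with the replicate block (edgeR, adjusted p = 0.278). Whether replicate numbers pair the pools was not settled. Same-numbered pools deviated together with r from -0.01 to 0.12, and most, but not all, correlated best with another number. Over all genes, the block gave 684 calls in females without P9 (432 without the block) and 247 in males (311 without it). Lrrc10b passed the threshold in females with the block (edgeR, log2 fold change -0.65, adjusted p = 0.193). No other call of the single genes followed changed with it. Of all values for single genes, 37 kept their side of the threshold, 4 passed it and 3 lost it, leave-one-out aside. At members near 1 CPM few reads per pool were counted, and small effects were not detectable.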

Other observations

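Some members differed in level between the sexes in the water pools other than P9, a pattern noticed in the values and not tested. Rgs9 was at 9.60 to 13.9 CPM in the 4 female water pools and at 6.23 to 8.30 CPM in the 5 male water pools. Lrrc10b was at 2.74 to 3.77 CPM in female and 1.75 to 2.52 CPM in male water pools. Drd2 was at 1.85 to 2.71 CPM in female and 1.16 to 2.23 CPM in male water pools, so these ranges overlapped. In ethanol pools the ranges met at all 3 genes, with Rgs9 at 7.86 to 9.72 CPM in females and 6.94 to 10.4 CPM in males.

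In a single fit of both sexes, the edgeR adjusted p of Penk in males was 0.967 with P9 in the fit and 0.681 without it, at log2 fold changes of -0.18 and -0.17. All groups share the estimate of spread in that fit, and P9 is no male pool.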
